A study of Mus musculus with 2 samples.

Results

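The genes of the proteasome, the protease complex that destroys ubiquitin-tagged proteins and cuts many of the peptides shown on MHC class I, were followed in mouse dendritic cells (DCs) cultured with or without the cytokine IL-27. The members were all genes with a probe set of their own in the platform annotation whose symbol begins with Psm, a letter from a to g and a digit. There were 50 such genes among 19935 in all, and 48 of them encode subunits, regulators or assembly factors. Psmc3ip, a recombination factor, and Psme3ip1, a partner of the nuclear activator Psme3, match by name and are counted among the 50 but belong to no role group. A gene with several probe sets is shown by the one with the highest mean log2 value.

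Both groups were splenic DCs that had been obtained by flow sorting. The mice were C57BL/6, wild type and 8 weeks of age. One group received vehicle, which 1 label calls medium, and the other IL-27, and the duration is given only as "ON". Each group was read on 1 array, so no difference below has a replicate check, and no SD, standard error or p-value is given. How many mice or cultures stand behind a sample is not stated, and in bulk RNA fewer cells of a type and less RNA per cell cannot be told apart.

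The proteasome is built from a barrel, the 20S core, and caps that bind its ends. The outer rings of the core hold alpha subunits that gate entry, and the inner rings hold beta subunits, of which Psmb5, Psmb6 and Psmb7 carry the cutting sites. In immune cells and under interferon these are replaced by the immune subunits Psmb8, Psmb9 and Psmb10, which shift the cuts towards peptide ends that MHC class I binds well, and the assembled form is called the immunoproteasome. The 19S cap recognises and unfolds tagged proteins, the PA28 cap opens the gate without ubiquitin, and dedicated chaperones assemble the parts. DCs are known for a high content of immunoproteasome.

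The promoters of 5 of the exchanged subunits, all but Psmb7, are shown first, since the results turn on the immune subunits and the subunits they replace. The runs below are the 150 bases before the annotated start, from RefSeq on GRCm38.p6, 5′ to 3′ on the strand of the gene, and capitals mark a match to 1 of the motifs named in the next paragraph.
Psmb8, chr17:34198045-34198194, plus strand: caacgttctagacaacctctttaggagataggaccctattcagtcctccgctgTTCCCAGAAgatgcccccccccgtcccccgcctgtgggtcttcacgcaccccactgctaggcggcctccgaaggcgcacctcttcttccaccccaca
Psmb9, chr17:34187331-34187480, minus strand: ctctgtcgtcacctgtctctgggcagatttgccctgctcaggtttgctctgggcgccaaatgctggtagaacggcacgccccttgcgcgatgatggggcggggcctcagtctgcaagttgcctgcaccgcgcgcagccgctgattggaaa
Psmb10, chr8:105938393-105938542, minus strand: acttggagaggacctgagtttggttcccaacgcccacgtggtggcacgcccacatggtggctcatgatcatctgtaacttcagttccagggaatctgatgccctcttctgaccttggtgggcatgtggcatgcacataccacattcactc
Psmb5, chr14:54617996-54618145, minus strand: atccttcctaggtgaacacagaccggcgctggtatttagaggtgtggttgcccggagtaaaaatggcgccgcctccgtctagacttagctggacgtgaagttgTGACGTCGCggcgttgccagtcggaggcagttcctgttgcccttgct
Psmb6, chr11:70525207-70525356, plus strand: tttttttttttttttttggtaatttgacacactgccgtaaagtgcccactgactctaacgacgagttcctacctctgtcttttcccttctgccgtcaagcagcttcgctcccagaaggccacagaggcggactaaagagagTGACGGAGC

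The motifs were searched on both strands over the 250 bases before the start. The gamma-activated site, TTCNNNGAA, was found in Psmb8, beginning 97 bases before its start, and in 2 of the 42 members that the promoter table holds (4.76%), against 8.13% of all 27025 genes in it. The antioxidant response element, TGACNNNGC, the kind of site used by the factors NRF1 and NRF2, was found in Psmb5 (47 bases before the start) and Psmb6 (9 bases before the start). It occurred in 5 of the 42 members (11.9%) and in 11.5% of all genes. The interferon-stimulated response element, GAAANNGAAA, was found in 3 members, Psmb3, Psmd4 and Psmd9 (7.14%, against 3.46% of all genes), and in none of the windows printed. A match is a run of letters in this window and not evidence of binding.

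The differences of the proteasome genes centred close to those of all genes and had a narrower spread. A level minimum was set at an intensity of 96.2, the median of all values, which the brighter array had to reach. Of the 50 members 47 reached it. The other three were Psma8, the testis form of an alpha subunit (43.8 with vehicle and 41.1 with IL-27), Psmb11, the subunit of the thymic proteasome (57.1 and 79.6), and Psmc3ip (82.9 and 72.6). The 47 ranged from 94.3 to 2482 with vehicle and from 78.8 to 2004 with IL-27. Their log2 differences, IL-27 minus vehicle, had a median of -0.31, beside -0.34 over all 11140 genes at that level. The middle 50% of the members spanned 0.32 on the log2 scale, against 0.82 for all genes. These genes were not matched to the members on level, so the narrower spread is not shown to be particular to proteasome genes.

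**Figure D1:**
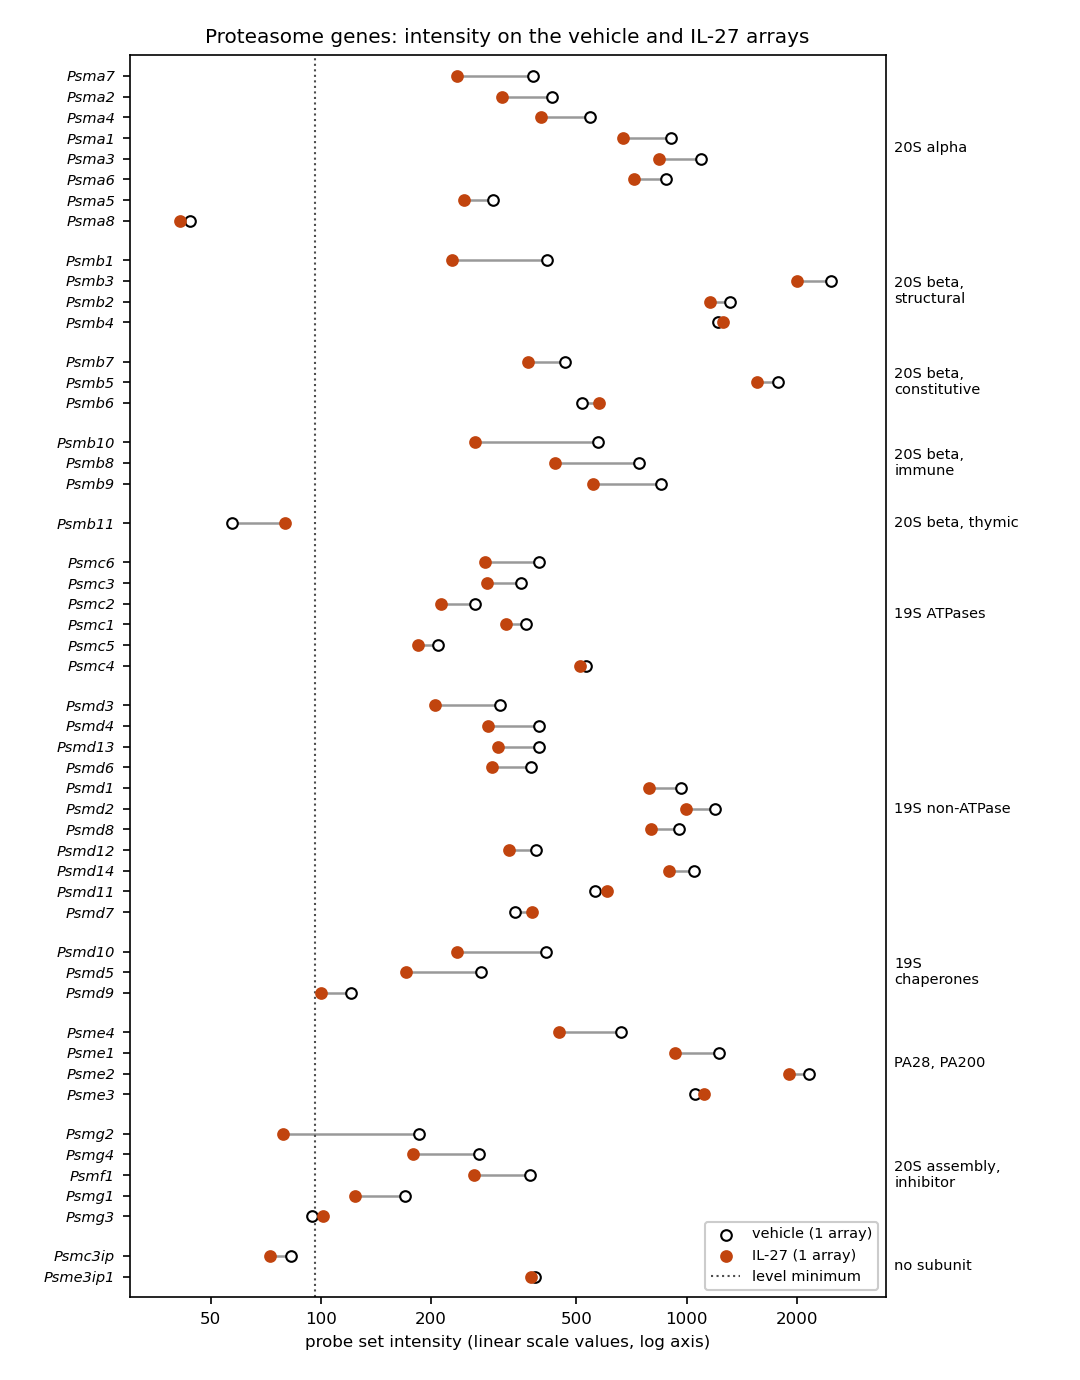
Intensity of each of the 50 genes on the vehicle array (open circles) and the IL-27 array (filled circles), on a log axis, grouped by role; each circle is 1 array and the dotted line is the level minimum of 96.2. The longest bars among genes over the minimum belong to Psmg2 and Psmb10, and Psma8, Psmb11 and Psmc3ip lie left of the line on both arrays.

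By a rule of size, a 2-fold difference with the level minimum reached, 2 of the 47 members were lower with IL-27 and 0 were higher. Over all genes past the same minimum 13.2% were lower and 1.52% higher, so the members' share of lower genes (4.26%) lay below this background, which was not matched on level. The lower members were Psmg2 and Psmb10. Just outside the rule lay Psmb1, Psmd10 and Psmb8, with differences of -0.86, -0.80 and -0.76. At 1.5-fold, 10 of the 47 members were lower (21.3%, background 33.7%) and 0 higher (background 5.86%).

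How far a gene differed depended on how bright it was, and this touches every value below. Removing the trend of the difference on level by lowess moved the median of all genes from -0.34 to -0.10. At the members' levels the trend itself lay between -0.44 and 0.12, with a median of -0.38. With the trend removed the members' median was -0.01, and 24 of 47 were below 0 (51.1%, all genes 57.8%), in place of 41 as deposited (87.2%, all genes 70.9%). Their middle 50% then spanned 0.29 (all genes, again not matched on level, 0.73). On this scale 1 of 47 members, Psmg2, was 2-fold lower (background 6.70%) and 0 were higher (background 2.38%). At 1.5-fold, Psmb10 and Psmg2 were lower (2 of 47, background 20.4%) and Psmd7 was higher (1 of 47, background 8.67%). After quantile normalization 1 was 2-fold lower (background 8.17%) and 0 were higher (background 2.12%). The split of all 2-fold calls also moved, from 10.3% higher as deposited to 26.2% higher with the trend removed and 20.6% after quantile normalization. Below, "trend-removed" marks the second value. Of the 47 members, 23 were below 0 and 3 above 0 under all 5 scalings tried (as deposited, quantile normalization, median centring, trend removal, an offset of 16), and the other 21 had both signs. The share of all genes with the same sign under all 5 was not counted. A constant sign, here or below, therefore has no background beside it and does not mark a gene as unusual.

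**Figure D2:**
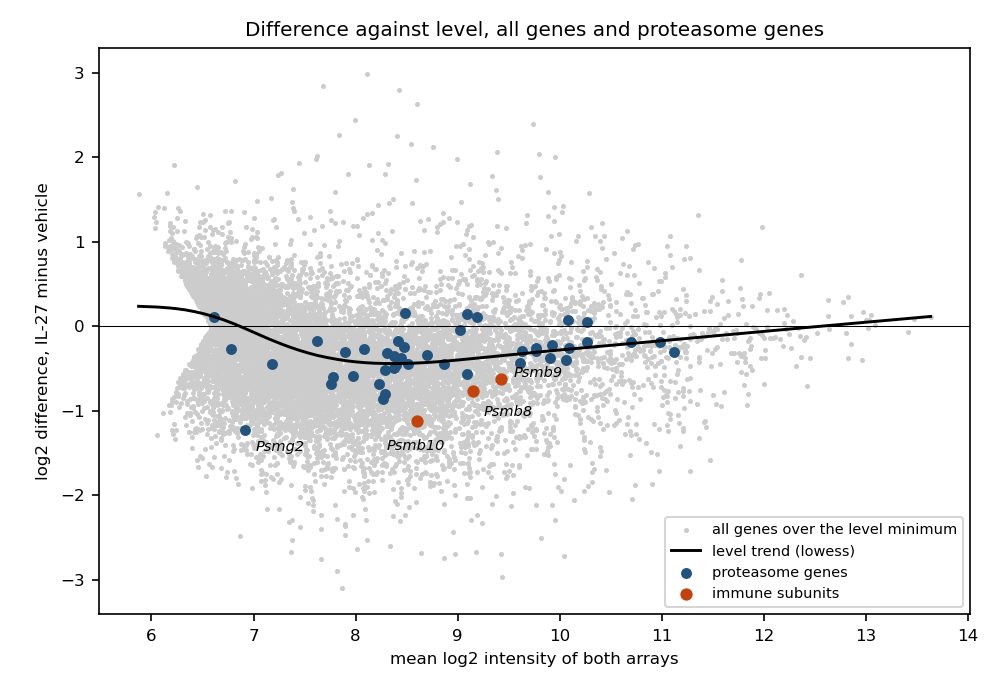
Log2 difference (IL-27 minus vehicle, vertical axis) against the mean log2 intensity of both arrays (horizontal axis) for 11140 genes over the level minimum in grey, with the lowess trend as a line and the proteasome genes that have a role in colour. Psmb8, Psmb9, Psmb10 and Psmg2 are among the points below the line.

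For a few members, further probe sets of the same gene were read on the same arrays. Psma3, Psma5, Psmb3, Psmc1 and Psmd2 each had more than 1 probe set. Their probe sets differed from one another by 0.04, 0.04, 0.02, 0.26 and 0.07 in the log2 difference. For Psmc1 the values were -0.18 (the probe set used) and -0.44. These figures hold the error of probes on 1 hybridisation, not that of cultures or mice, and probe sets of 1 gene can also read copies of it elsewhere in the genome.

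The immune subunits stood lowest as a group within the core. Psmb10, the immune subunit with trypsin-like cutting, had intensities of 572 (vehicle) and 264 (IL-27), a difference of -1.12, which is 2.17-fold lower. Its trend-removed difference was -0.68, short of the rule. Psmb8, with chymotrypsin-like cutting, had 741 and 436, a difference of -0.76 (trend-removed -0.38). Psmb9, which takes the place of the caspase-like subunit, had 853 and 556, a difference of -0.62 (trend-removed -0.27). All 3 were below 0 under each of the 5 scalings, with a median of -0.76 as deposited and -0.38 with the trend removed.

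As deposited, the constitutive catalytic subunits had differences nearer to 0 than the immune subunits, but with the trend removed that of Psmb6 was larger in size than those of Psmb8 and Psmb9. Psmb5, the chymotrypsin-like subunit, had intensities of 1773 (vehicle) and 1560 (IL-27), a difference of -0.18 that turned to 0.02 with the trend removed. Psmb7, the trypsin-like subunit, had 466 and 369, or -0.34, which turned to 0.09. Psmb6, the caspase-like subunit, had 518 and 576, a difference of 0.15 that was above 0 under all 5 scalings and reached 0.54 with the trend removed. None of the 3 passed the rule of size (all genes 13.2% lower and 1.52% higher).

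Within each exchange pair the immune subunit was lower relative to its constitutive counterpart. Taking the difference of one minus that of the other cancels a factor shared by the whole array. For Psmb10 against Psmb7 this value was -0.78, a ratio 1.72-fold lower with IL-27. For Psmb9 against Psmb6 it was -0.77, or 1.71-fold. For Psmb8 against Psmb5 it was -0.58, or 1.49-fold. Over the 5 scalings the 3 values stayed within -0.79 to -0.75, -0.82 to -0.75 and -0.58 to -0.40. Median centring cannot change such a value, and the 5 scalings reuse the same 2 arrays. The small ranges therefore follow in part from the subtraction and are no support for the contrast. It fell short of 2-fold in each pair, and with 1 array per group it could not be tested.

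**Figure D3:**
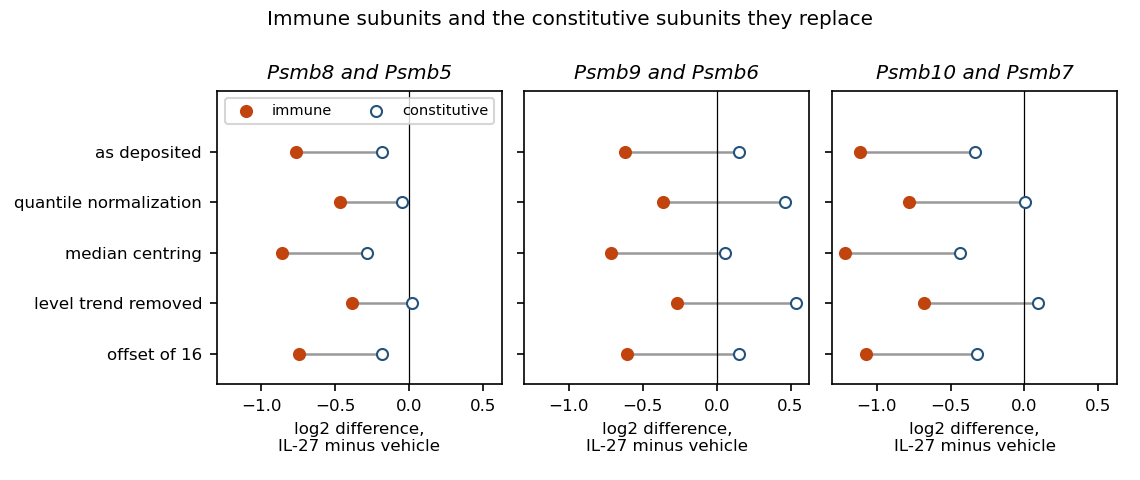
Log2 difference (IL-27 minus vehicle) of each immune subunit (filled) and of the constitutive subunit it replaces (open), under 5 scalings of the same 2 arrays. In all 3 pairs and under all 5 scalings the filled point lies left of the open one.

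Among the other 14 core subunits over the level minimum the median difference was -0.32, or 0.005 with the trend removed. On the latter scale 7 of the 14 were above 0, while 57.8% of all genes were below 0. Psmb1 and Psma7 were the 2 core subunits outside the immune group with a lower value than Psmb9. Psmb1, a structural beta subunit, had intensities of 415 (vehicle) and 228 (IL-27), a difference of -0.86 (trend-removed -0.42), which placed it between Psmb10 and Psmb8. Psma7 had 379 and 236 (-0.68, trend-removed -0.25). So the immune subunits did not stand apart from every other core subunit, and Psmb1 had a lower value than Psmb8 and Psmb9 with the trend removed as well.

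The alpha ring members lay close together. The 7 members over the minimum had a median of -0.44 and lay between -0.68 (Psma7) and -0.26 (Psma5, 296 with vehicle and 247 with IL-27). With the trend removed they lay between -0.25 and 0.17, with a median of -0.03. The 4 structural beta subunits had a median of -0.25 (trend-removed -0.04). Psmb4 was highest among them, at 1215 and 1254, a difference of 0.05 that turned to -0.05 with median centring.

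No subunit of the 19S cap passed the rule of size (all genes 13.2% lower and 1.52% higher). The 6 ATPases of the cap base, which unfold the substrate and thread it into the core, had a median of -0.24. It turned to 0.15 with the trend removed and was -0.31 with the mean of probe sets. Psmc6 was lowest, at 395 with vehicle and 280 with IL-27 (-0.50), and Psmc4 highest, at 529 and 512 (-0.05). The 11 non-ATPase subunits had a median of -0.26, which turned to 0.06. Psmd3, a scaffold subunit of the lid, was lowest at 309 and 205 (-0.59, trend-removed -0.17). Psmd7, the inactive partner of the deubiquitinase Psmd14, was highest at 340 and 379 (0.16, trend-removed 0.59), and Psmd14 itself had 1049 and 897 (-0.23, trend-removed 0.06). Of the 17 cap subunits 14 were above 0 with the trend removed, a scale on which 57.8% of all genes were below 0, and none lay below Psmb9 on either scale.

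**Figure D4:**
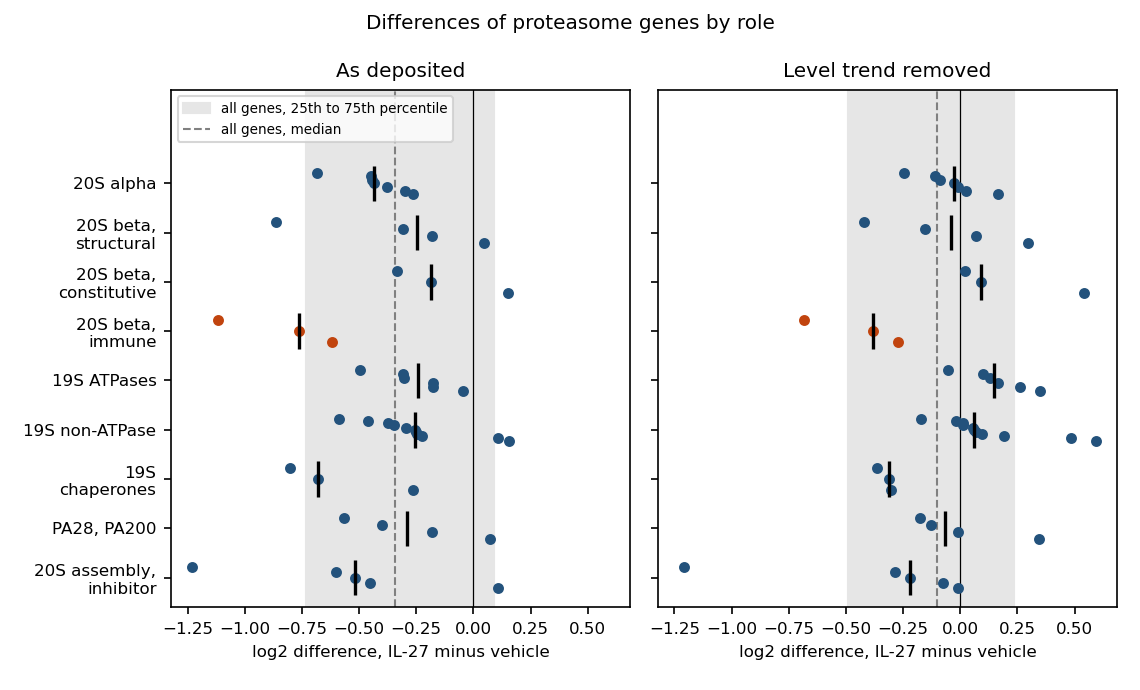
Log2 difference (IL-27 minus vehicle) of each member over the level minimum by role, as deposited (left) and with the level trend removed (right); each point is 1 gene, black bars are group medians, and grey shading and the dashed line are the 25th to 75th percentile and the median of all genes. The immune subunits, with a median of -0.76 on the left and -0.38 on the right, lie left of the 19S ATPase and non-ATPase subunits on both sides.

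Both chains of PA28, which interferon induces together with the immune subunits in many cells, had smaller differences than the immune subunits by their own probe sets. Psme1, its alpha chain, had intensities of 1227 (vehicle) and 929 (IL-27), a difference of -0.40 (trend-removed -0.13). Psme2, its beta chain, had 2155 and 1900 (-0.18, trend-removed -0.01). A further probe set, which the annotation gives to Psme2 and to its copy Psme2b and which was left out by the rule, had 1204 and 747, a difference of -0.69, so the value for Psme2 is uncertain. Psme3, the nuclear activator PA28 gamma, had 1057 and 1112 (0.07, trend-removed 0.34, but -0.02 with median centring). Psme4, which encodes the large single-chain activator PA200, had 663 and 448 (-0.56, trend-removed -0.18).

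Of the 5 core assembly factors and inhibitors 4 had a difference below 0 as deposited, as had 70.9% of all genes. Psmg2, which pairs with Psmg1 to build the alpha ring, had intensities of 185 (vehicle) and 78.8 (IL-27), a difference of -1.23 (trend-removed -1.21). The IL-27 value lies below 129, the 95th percentile of 1027 olfactory receptor genes on that array (77.3 on the vehicle array), which are not expected in DCs. Against that limit the gene was at least 1.43-fold lower, which is short of 2-fold. Its partner Psmg1 had 170 and 124, also under the limit with IL-27 (-0.45, trend-removed -0.29). Psmg3 had 94.3 and 102 (0.11, trend-removed -0.01) and Psmg4, with which it pairs, 271 and 179 (-0.60, trend-removed -0.22). The inhibitor Psmf1, known as PI31, had 374 and 262 (-0.52, trend-removed -0.08).

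The chaperones of the 19S base had a median of -0.68, or -0.31 with the trend removed, and were the group nearest to the immune subunits on that scale. Psmd10, also known as gankyrin, had intensities of 412 (vehicle) and 236 (IL-27), a difference of -0.80 (trend-removed -0.36). Psmd5 had 274 and 171 (-0.68, trend-removed -0.30). Psmd9 had 121 and 100, the latter under the olfactory limit (-0.27, trend-removed -0.31). All 3 were below 0 under each of the 5 scalings, and none passed the rule of size (all genes 13.2% lower and 1.52% higher). Pomp, the chaperone that brings beta subunits into the core and that immunoproteasome assembly requires, had 637 and 380 (-0.75, trend-removed -0.34).

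Genes that work with the proteasome were taken from fixed lists. Of 10 measured partners of the complex, including Pomp, 1 was higher by the rule of size (all genes 1.52%) and 0 were lower (all genes 13.2%). Their median was -0.46 (trend-removed -0.11). The higher gene was Zfand2a, a stress-induced zinc finger protein that binds the 19S cap, at 1086 with vehicle and 2249 with IL-27, a difference of 1.05 that was 0.95 with median centring and 1.26 with the trend removed. None of 7 ubiquitin-shuttle and unfoldase genes over the level minimum passed the rule (all genes 13.2% lower and 1.52% higher). Their median of -0.17 turned to 0.19 with the trend removed. Of 6 cytosolic peptidases, which trim or destroy proteasome products, 1 was lower (all genes 13.2%). This was Lap3, leucine aminopeptidase, at 995 and 351, or 2.84-fold lower (-1.50, trend-removed -1.13), and the list had a median of -0.47 (trend-removed -0.15).

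Regulators of subunit genes did not share a direction. Nfe2l1, which encodes NRF1, the factor that raises constitutive subunit genes when the proteasome is blocked, had intensities of 755 (vehicle) and 796 (IL-27), a difference of 0.08 (trend-removed 0.40, and -0.02 with median centring). Ngly1, the deglycosylating enzyme that NRF1 needs for activity, was 2.64-fold lower, at 410 and 156 (-1.40), and just short of the rule with the trend removed (-0.98). Nfe2l2, which encodes NRF2, had 1435 and 2426 (0.76, trend-removed 0.94). On the interferon side, Irf1, a direct activator of the immune subunit genes, had 858 and 941 (0.13, trend-removed 0.43). Nlrc5, the activator of MHC class I genes, had 1320 and 1157 (-0.19, trend-removed 0.06). These are the brightest of 2 probe sets for Irf1 and of 19 for Nlrc5. The others are not shown, so the value for Nlrc5 in particular is uncertain. Irf8 had 2394 and 1502 (-0.67, trend-removed -0.49) and the interferon-gamma receptor chain Ifngr1 3832 and 2186 (-0.81, trend-removed -0.70), whereas the other chain, Ifngr2, had 2173 and 2675 (0.30, trend-removed 0.44). Of 9 measured regulators 1 was lower (all genes 13.2%) and 0 higher (all genes 1.52%).

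Psmb9, Tap1, Psmb8 and Tap2 follow one another on chromosome 17 among the MHC class II genes. Tap1 and Tap2 encode the transporter that carries proteasome products into the endoplasmic reticulum. Tap1 had intensities of 1357 (vehicle) and 1134 (IL-27), a difference of -0.26 (trend-removed -0.01), and Tap2 had 556 and 419 (-0.41, trend-removed -0.001). Along the run the differences were therefore -0.62, -0.26, -0.76 and -0.41, with both immune subunits lower than both transporter genes, also with the trend removed. In the class I processing list as a whole, 1 of 9 measured genes was lower (all genes 13.2%) and 0 higher (all genes 1.52%). The list had a median of -0.39 (trend-removed -0.01). The lower gene was Erap1, the aminopeptidase that trims these peptides after transport, at 342 and 159 (-1.11, trend-removed -0.71).

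Markers of cell types differed between the arrays alongside the immune subunits. All 8 pan-DC markers were over the level minimum. Of the 8, 3 were lower with IL-27 by the rule of size (all genes 13.2%) and 0 higher (all genes 1.52%). Their median difference was -0.45 (trend-removed -0.41). The lower genes were Kmo (-2.30), Dpp4 (-1.09) and Flt3 (-1.08), of which only Kmo was 2-fold lower with the trend removed. The summed intensity of all 8 markers was 32044 with vehicle and 28540 with IL-27. Most of it came from Cd74, H2-Ab1 (8357 and 8222) and H2-Aa (7080 and 7697), so the sum says little about the dimmer markers. Of those, Kmo had 1243 and 253, Dpp4 1718 and 804, Flt3 1796 and 851, and Zbtb46 344 and 340. Short of the rule, Itgax, which encodes CD11c, had intensities of 3371 (vehicle) and 1829 (IL-27), and Cd74, the class II invariant chain, 8134 and 8544. All 13 macrophage and monocyte markers were over the minimum too, the dimmest on the vehicle array being Cd163 at 465 (88.1 with IL-27). Of the 13, 10 were lower with IL-27 by the rule of size (all genes 13.2%). Their summed intensity was 33354 with vehicle and 14151 with IL-27, and their median difference was -1.54 (trend-removed -1.30). Summed intensities of type 1 DC markers were 8772 and 4480, of type 2 DC markers 8711 and 3037, and of plasmacytoid DC markers 1002 and 637. Those of B cell markers were 1372 and 879. All 6 type 1 DC markers were over the level minimum, and 3 were lower by the rule of size (all genes 13.2%). Of the 6 type 2 DC markers 5 were over the level minimum, all but Mgl2. By the same rule 4 were lower (all genes 13.2%), among them Clec4a4, whose IL-27 value of 66.1 lay under the olfactory limit. With the trend removed 2 type 1 and 4 type 2 DC markers were lower (all genes 6.70%). The remaining type 2 DC marker over the minimum, Irf4, went the other way, at 529 and 698 (0.40, trend-removed 0.77). The T cell list (460 and 503), the NK cell list (734 and 461) and the neutrophil list (220 and 338) had only 3 of 5, 2 of 4 and 1 of 4 genes over the level minimum, so their sums are partly those of genes too dim to compare. The erythroid list had 0 of 3 genes with a probe set of their own. The part of these marker shifts in the lower values of Psmb8, Psmb9 and Psmb10 was not tested.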

How the data were processed

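Total RNA of 2 samples was hybridised to 1 Affymetrix array each after labelling with the WT Terminal Labeling Kit, per the labels' protocols. The authors deposited 1 linear intensity per probe set and array for 28815 probe sets. How scanner images became these intensities, and how the arrays were scaled, is not given in the sources used here. The build is mm8, per the submitters' processing notes. Every column was used. Names came from GEO's platform annotation, in which 21780 probe sets had 1 gene, 1605 several and 5430 none. All 50 members matched a RefSeq gene ID with an unchanged symbol. The analysis took log2 with no pseudocount and called a gene at a log2 difference of at least 1 where the brighter of the arrays reached 96.2. The only precision available is that of 1 array per group.

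Alternatives were quantile normalization, median centring, lowess trend removal (span 0.3), an offset of 16, other level filters (none, or both arrays over the 75th percentile), a 1.5-fold rule and the mean of probe sets. The olfactory limit was taken from earlier work on these data. The members and lists were chosen with earlier results of these data known. Named were all members of the catalytic, PA28 and inhibitor groups, members past the rule, the highest and lowest of each role, pathway genes past the rule and a few fixed regulators. Psmd5, Psmd14, Psmg1, Psmg4, Nfe2l2, Irf8, Ifngr1, Ifngr2 and the cell markers were added after their values were seen, as were genes named for probe sets, motifs or the level minimum. Calls were tested on simulated data with Python 3.11.15, pandas 2.3.3 and statsmodels 0.14.6. Protein sequences were planned but not used here. Promoters came from RefSeq (GRCm38.p6), which held 42 of the 50 members.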

Additional observations from a re-analysis of the deposited data

How the results depend on the processing

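The count of 2 lower members was 1 with quantile normalization, trend removal, both arrays over the 75th percentile, or the olfactory limit (added after seeing the data), and 10 at 1.5-fold. Psmb10 lost its call at -0.78 (quantile) and -0.68 (trend removed), and Psmg2 had -0.51 against the olfactory limit. The count of 0 higher members stayed at 0 under each alternative taken singly, and was 1 (Psmd7) at 1.5-fold with the trend removed. The median over members kept its sign, between -0.41 and -0.01. Signs turned for the constitutive catalytic subunits (0.00043 with quantile normalization, the value of Psmb7, and 0.092 with the trend removed; Psmb5 0.019), the 19S ATPases (0.068 and 0.15) and, with the trend removed, the 19S non-ATPase subunits (0.062). The ubiquitin shuttle list turned to 0.10 (quantile) and 0.19 (trend removed), and the regulators to 0.21 and 0.28. The call of Zfand2a was lost with median centring, leaving 0 partners higher. The lower regulator was lost with the trend removed (0) and with both arrays over the 75th percentile (0), and the lower class I gene under those and quantile normalization (0). At 1.5-fold, 4 partners, 2 shuttle genes and 3 regulators were lower (all genes 33.7%) and 1 regulator was higher (all genes 5.86%). All 3 pair contrasts kept their sign and stayed short of 2-fold. The cause of these shifts was not tested. Dim genes (Psmg1, Psmg2, Psmg3, Psmd9) lay at or below the olfactory limit with IL-27, which limits what their differences show. No paired analysis was possible because the labels give no replicate numbers and each group has 1 array.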
